A study of Homo sapiens with 12 samples.

Results

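The tumor necrosis factor (TNF) superfamily was examined in human adipocytes that carried scramble shRNA or shRNA against linc-ADAIN, a long intergenic non-coding RNA of adipose tissue. Members were all rows of the deposited count table whose symbol starts with TNFSF or TNFRSF followed by a digit, together with TNF, LTA, LTB, LTBR, FAS, FASLG, CD40, CD40LG, CD27 and CD70, and without NGFR. This gave 43 members, 18 ligands (a TNFSF12-TNFSF13 readthrough among them) and 25 receptors, of 28901 named genes. The cells were ASC52telo hTERT, a line of human adipose-derived stromal cells immortalized with telomerase, in which the scramble or linc-ADAIN shRNA (linc-ADAIN KD) came from a lentivirus with a ZsGreen marker and were sorted for ZsGreen. All were differentiated to day 14 in adipogenic medium that held insulin, dexamethasone, isobutylmethylxanthine and rosiglitazone at first, and then insulin and dexamethasone. On day 14 lipopolysaccharide (LPS), a bacterial Toll-like receptor agonist, was added at 100 ng/mL for 4 hours to one set of each. The 4 groups were scramble, scramble with LPS, KD and KD with LPS, with 3 libraries each.

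The libraries come from 1 line and 1 targeting shRNA construct, and the methods give a single experiment in triplicate, so the p-values measure the spread between these libraries, which may be technical. Totals ran from 28.4 M to 53.8 M estimated counts (M, 1e+06). linc-ADAIN itself was not analysed here, so its level does not check the labels. Of 10 adipocyte markers, LPL and LEP had 0 counts in at least 1 library and the others, such as ADIPOQ, PLIN1 and FABP4, were detected in all, and the summed level was 3200 to 4427 CPM (counts scaled to library size) in scramble, 3702 to 4288 in scramble with LPS, 642 to 1880 in KD and 519 to 1206 in KD with LPS. Between KD and scramble, 7 of the 10 adipocyte markers were lower without LPS and 8 with LPS, and 0 passed as higher in either setting. Without LPS the log2 difference was -1.40 for ADIPOQ, -1.66 for FABP4, -1.14 for PLIN1 and -0.87 for PPARG. This direction is opposite to that in the paper, which reports more mRNA and protein of adipogenic markers, adiponectin among them, after knockdown in this line. The cause of that discrepancy was not tested. The summed level of 10 leukocyte markers was 4.29 to 6.52 CPM in scramble and 55.7 to 84.1 in KD, and 5 of them, TYROBP included, had 0 counts in every library. That rise was in CD163, a scavenger receptor, at 4.33 ± 1.12 CPM in scramble and 68.6 ± 13.7 in KD (SD, n = 3), while PTPRC, the pan-leukocyte CD45 gene, had 0 to 12 counts in any library. Stromal markers summed to 5978 to 7404 CPM in scramble and 8251 to 9845 in KD, but moved in both directions, with 4 of 8 higher and 3 lower in KD without LPS and 3 and 3 with LPS. LUM was higher by 2.01 on the log2 scale without LPS, and THY1 differed by -2.37 and ENG by -1.36. Endothelial markers summed to 23.6 to 27.1 CPM in scramble and 11.8 to 12.3 in KD. Of 5 tested, 2 were lower in KD and 0 higher without LPS. With LPS 3 were lower and 1 was higher, KDR by 4.88 on the log2 scale, from 2 to 6 counts per library in scramble with LPS. The part of these shifts in the results below was not tested, and in bulk RNA fewer cells of a type and less RNA per cell cannot be told apart.

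TNF superfamily ligands are trimeric, mostly membrane-anchored proteins that can be shed, and their receptors signal once clustered. Receptors with a death domain recruit TRADD or FADD and can reach caspase-8, receptors without one bind TRAF adaptors and feed NF-kB and MAP kinases, and decoy receptors bind ligand without passing the signal on. In adipose tissue TNF, acting mainly through TNFRSF1A, is known to oppose insulin signalling and to drive lipolysis.

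The superfamily in these cells was a family of receptors with few transcripts for their ligands. Genes were set side by side on CPM per kb of the longest annotated transcript. The 4 most abundant members over the 12 libraries were TNFRSF1A, TNFRSF12A, LTBR and TNFRSF11B. They held 85.5% ± 0.071 of the family's summed level in scramble and 79.7% ± 0.633 in KD with LPS (SD, n = 3). TNFRSF11B was among them through its levels in KD. In scramble it was at 8.09 per kb, below TNFRSF21 at 25.7 and TNFRSF10B at 15.9. The 18 ligands together held 1.52% ± 0.154 in scramble, 2.48% ± 0.153 in scramble with LPS, 1.42% ± 0.061 in KD and 2.51% ± 0.234 in KD with LPS. TNFSF12, which encodes TWEAK, the ligand of TNFRSF12A, was the highest ligand at 7.2 ± 0.954, 8.08 ± 0.327, 6.08 ± 0.898 and 6.43 ± 0.527 CPM in the 4 groups, and it passed no comparison. TNF had 1 to 19 counts in any library. Its libraries overlapped between all groups that were compared, so no difference in TNF mRNA was detectable at this depth.

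The order of the most abundant receptors was not the same in the 4 groups. Per kb, scramble had TNFRSF1A at 155 ± 10.1 and TNFRSF12A at 139.5 ± 10.6, whose libraries overlapped, followed by LTBR at 90.8 ± 6.34. Scramble with LPS had TNFRSF1A at 151 ± 17.97, LTBR at 79.3 ± 11.3 and TNFRSF12A at 51.2 ± 2.16, with no overlap between neighbours. In KD, TNFRSF12A led at 128 ± 4.49, and LTBR at 79.6 ± 4.20 and TNFRSF1A at 78.2 ± 6.54 overlapped, with TNFRSF11B next at 58.9 ± 15.7. KD with LPS had TNFRSF11B first at 102 ± 21.9, then LTBR at 73.6 ± 7.37, TNFRSF12A at 70.2 ± 9.29 and TNFRSF1A at 65.3 ± 4.74, the last 3 overlapping. Levels between genes depend on the length assumed, and the canonical transcript was tried after these values were seen. With it, TNFRSF12A had a higher mean than TNFRSF1A in scramble (239.6 ± 18.2 against 213 ± 13.9). It also had a higher mean than TNFRSF11B in KD with LPS (121 ± 15.96 against 102 ± 21.9). The libraries overlapped in both pairs. In scramble with LPS, TNFRSF12A at 88.0 ± 3.70 and LTBR at 86.5 ± 12.3 then overlapped. In KD, TNFRSF1A then stood above LTBR without overlap (108 ± 9.00 against 86.8 ± 4.58).

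**Figure D1:**
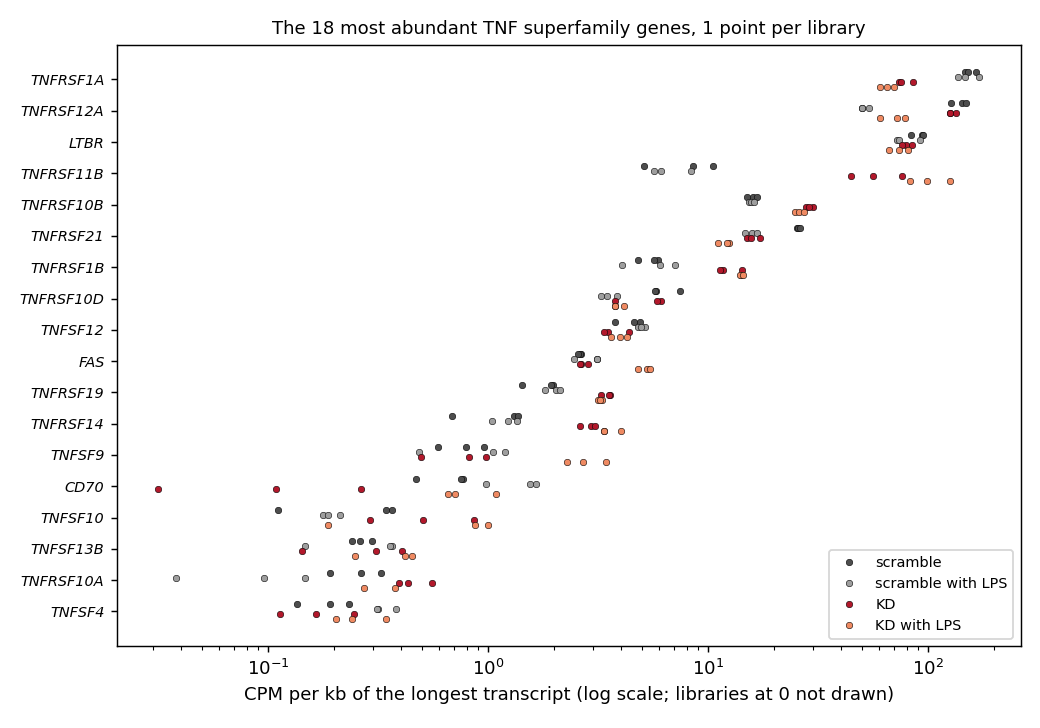
Levels per library of the 18 most abundant members, in CPM per kb of the longest transcript on a log axis, with 1 point per library and the 4 groups in different colours. TNFRSF1A, TNFRSF12A, LTBR and TNFRSF11B stand at the top, and TNFRSF11B spreads from 5.13 in a scramble library to 126 in a library of KD with LPS.

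The question of what knockdown of linc-ADAIN did to the family was addressed by KD against scramble, first without LPS. In the edgeR quasi-likelihood test with Benjamini-Hochberg adjustment over 17173 genes, 8 of the 40 members tested passed an adjusted p of 0.05, which is 20% beside 25.5% of all genes tested. Of these, 5 receptors were higher, beside 11.2% of all genes, and 3 members were lower, beside 14.3%. A 2-fold difference as well was reached by 4 members, beside 7.26% of all genes. With LPS in both arms 12 members passed, or 30% beside 26.9%, with 9 higher (beside 12.7%), 3 lower (beside 14.1%) and 7 past 2-fold (beside 8.30%). The median log2 difference of the members was 0.02 without LPS, and with LPS it was 0.71 as fitted and 0.49 when genes at 0 in one group were set to their bound, beside 0.01 and 0.02 for all genes.

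Of the death-domain receptors, TNFRSF1A (TNFR1, chr12:6328757-6342114, GRCh38, minus strand), the main receptor for soluble TNF, was lower in KD. Its level was 438, 453 and 496 CPM in scramble and 407, 512 and 439 in scramble with LPS, against 256, 221 and 224 in KD and 209.6, 195 and 181 in KD with LPS. Every KD library lay below every scramble library. It was 1.98-fold lower without LPS (log2 difference -0.98 ± 0.09 SE, adjusted p = 2.16e-07) and 2.32-fold lower with LPS (-1.21 ± 0.09, adjusted p = 1.19e-08). LTBR, the lymphotoxin beta receptor, begins 32930 bases from TNFRSF1A on chromosome 12 and ranged from 154 to 221 CPM with overlapping groups. Its log2 difference between KD and scramble was -0.19 (95% interval -0.40 to 0.02) without LPS and -0.11 (-0.31 to 0.10) with LPS, and it passed no comparison.

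TNFRSF21 (DR6, chr6:47231532-47309905), a death receptor linked to axon pruning and T cell control, was also lower in KD. It measured 90.8, 91.8 and 94.3 CPM in scramble, 56.9, 59.8 and 52.9 in scramble with LPS, 61.9, 54.0 and 56.6 in KD and 44.9, 43.7 and 39.8 in KD with LPS. The scramble libraries were highest and the KD libraries with LPS lowest, and the groups between them lay at like levels. The KD difference was -0.68 ± 0.08 without LPS (adjusted p = 4.20e-06) and -0.40 ± 0.08 with LPS (adjusted p = 0.0011).

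TNFRSF10B (DR5), the main signalling receptor for TRAIL, rose in KD by contrast. It stood at 64.2, 66.6 and 60.1 CPM in scramble and 61.2, 62.9 and 64.8 in scramble with LPS, against 112, 119.7 and 115 in KD and 99.1, 103 and 109 in KD with LPS. The KD libraries lay above every scramble library. The rise was 1.81-fold without LPS (adjusted p = 6.71e-08) and 1.65-fold with LPS (adjusted p = 4.95e-07). TNFRSF10A, the other signalling TRAIL receptor, had 0 to 57 counts, and TNFRSF25, the receptor for TNFSF15, 0 to 19. Neither passed a comparison.

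Among members with more than 60 counts in every library, the largest difference was in TNFRSF11B (chr8:118923557-118951885, minus strand), which encodes osteoprotegerin, a secreted receptor that captures RANKL and TRAIL. It measured 10.7, 17.9 and 22.1 CPM in scramble and 12.8, 11.9 and 17.5 in scramble with LPS. In KD it was 93.2, 117 and 158 CPM, and in KD with LPS 172, 207 and 262. Every KD library exceeded every scramble library, and the KD libraries also differed widely among themselves. Osteoprotegerin mRNA was 7.29-fold higher without LPS (log2 difference 2.87 ± 0.23, adjusted p = 4.18e-08) and 15.1-fold higher with LPS (3.92 ± 0.25, adjusted p = 9.89e-10). Its ligand TNFSF11 (RANKL) had 0 to 9 counts and the RANKL receptor TNFRSF11A 0 to 23.

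Of the other decoy receptors, TNFRSF10D, a truncated TRAIL receptor, did not pass between KD and scramble (log2 difference -0.26 without and 0.15 with LPS), and TNFRSF10C (0 to 18 counts) and the soluble decoy TNFRSF6B (0 to 46 counts) were near the floor of detection.

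Of 15 TRAF-coupled receptors without a death domain, 3 were higher in KD without LPS, beside 11.2% of all genes, and 0 were lower. With LPS 4 were higher, beside 12.7%, and 0 lower. The 3 that were higher in both settings are given here. TNFRSF1B (TNFR2, chr1:12166991-12209228), the receptor that prefers membrane-bound TNF, was at 17.7, 21.8 and 21.0 CPM in scramble, 15.03, 26.2 and 22.4 in scramble with LPS, 43.0, 41.8 and 52.3 in KD and 52.1, 51.7 and 52.9 in KD with LPS. It was 2.27-fold higher without LPS (adjusted p = 9.76e-06) and 2.47-fold higher with LPS (adjusted p = 2.82e-06), with no overlap. TNFRSF14 (HVEM, chr1:2555639-2565382), which binds LIGHT and BTLA, was at 2.90, 5.57 and 5.80 CPM in scramble, 5.24, 4.43 and 5.77 in scramble with LPS, 11.2, 12.6 and 12.96 in KD and 14.3, 17.1 and 14.3 in KD with LPS. It was 2.57-fold (adjusted p = 8.67e-05) and 2.96-fold higher (adjusted p = 1.88e-05). TNFRSF19 (TROY, chr13:23570370-23676104) was at 8.77, 6.35 and 8.57 CPM in scramble, 9.05, 8.03 and 9.40 in scramble with LPS, 15.8, 14.5 and 15.8 in KD and 14.0, 14.6 and 14.3 in KD with LPS. It was 1.95-fold (adjusted p = 5.84e-05) and 1.62-fold higher (adjusted p = 0.0012). All 3 were separated in both settings, each KD library lying above each scramble library.

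**Figure D2:**
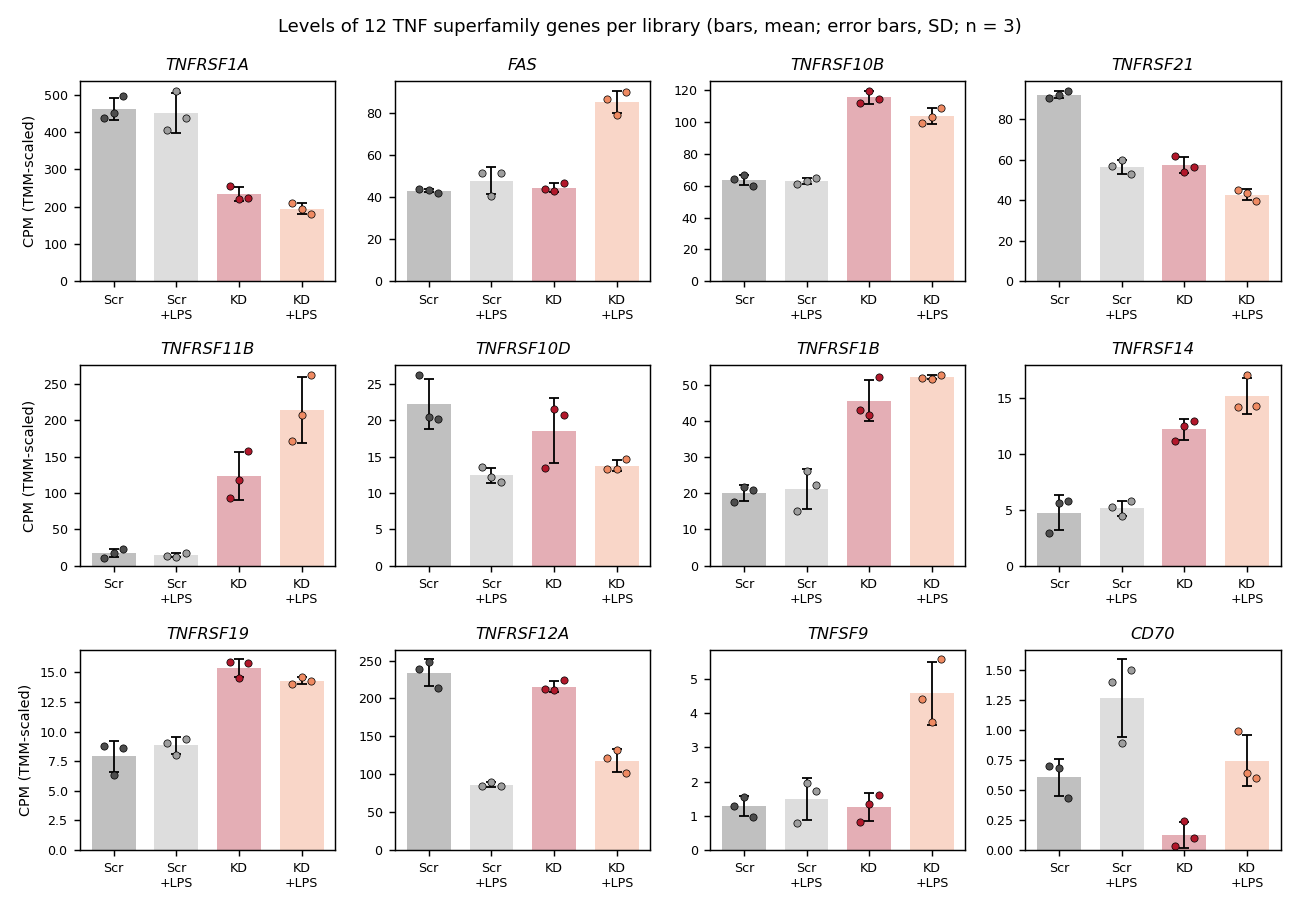
CPM after TMM scaling of 12 members in each library (points) with the mean (bars) and SD (error bars, n = 3) of scramble (Scr), scramble with LPS, KD and KD with LPS, each panel on its own linear axis from 0. TNFRSF1A is lower and TNFRSF10B, TNFRSF11B, TNFRSF1B, TNFRSF14 and TNFRSF19 are higher in both KD groups, while FAS and TNFSF9 stand out in KD with LPS.

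The receptors for TNF moved in opposite directions. The ratio of TNFRSF1A to TNFRSF1B in CPM per kb was 30.5, 25.7 and 29.2 in the scramble libraries and 33.4, 24.1 and 24.2 in scramble with LPS. It was 7.35, 6.52 and 5.29 in KD and 4.96, 4.65 and 4.23 in KD with LPS. The ratio was 28.4 ± 2.49 in scramble and 6.39 ± 1.04 in KD, and 27.2 ± 5.35 and 4.61 ± 0.367 with LPS (SD, n = 3), without overlap in either pair. In two-sided exact permutation tests of this ratio, which was chosen after the levels were seen, p was 0.1 for KD against scramble without LPS and 0.1 with LPS, the smallest that 3 libraries against 3 allow. For LPS against none it was 0.8 in scramble and 0.1 in KD. The size of the ratio depends on the transcript lengths used, whereas its change between groups does not.

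**Figure D3:**
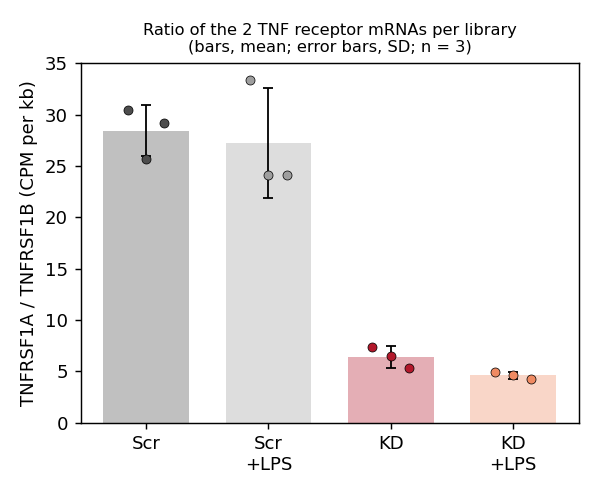
Ratio of TNFRSF1A to TNFRSF1B, both in CPM per kb of transcript, in each library (points), with mean (bars) and SD (error bars, n = 3) on a linear axis from 0. The 6 scramble libraries lie between 24.1 and 33.4 and the 6 KD libraries between 4.23 and 7.35.

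Upstream sequence of members on which these comparisons turn is shown so that the letters before their start sites can be read. RefSeq promoter entries (GRCh38.p14) matched 28 of the 43 members with 37 entries, since some have several starts, and the 250 bases before each start were searched on both strands. The kappaB consensus, the motif that NF-kB dimers bind, was present in 11 of the 37 entries (9 of 28 members), beside 9.96% of all 35116 promoters of that length. The AP-1 motif TGANTCA was in 6 of 37 (6.57% of all), GGGCGG in 22 of 37 (42.6%) and TATAAA in 6 of 37 (10.7%). Overlapping kappaB matches were merged to 1 stretch. These are upstream stretches in gene orientation, 5′ to 3′, with kappaB and TATAAA matches in capitals, first for the pair of TNF receptors and then for TNFRSF14, TNFSF9 and an internal FAS start, each of which held a match.
TNFRSF1A, chr12:6342115-6342326, minus strand: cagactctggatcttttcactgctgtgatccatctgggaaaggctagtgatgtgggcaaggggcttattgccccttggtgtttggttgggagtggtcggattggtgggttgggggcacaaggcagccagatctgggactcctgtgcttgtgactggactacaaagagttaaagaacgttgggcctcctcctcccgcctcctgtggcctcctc
TNFRSF1B, chr1:12166741-12166990, plus strand: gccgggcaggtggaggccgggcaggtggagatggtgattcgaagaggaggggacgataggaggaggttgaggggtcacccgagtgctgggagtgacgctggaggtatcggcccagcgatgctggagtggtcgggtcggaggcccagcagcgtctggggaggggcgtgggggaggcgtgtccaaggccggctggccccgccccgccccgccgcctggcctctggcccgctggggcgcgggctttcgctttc
TNFRSF14, chr1:2556262-2556370, plus strand: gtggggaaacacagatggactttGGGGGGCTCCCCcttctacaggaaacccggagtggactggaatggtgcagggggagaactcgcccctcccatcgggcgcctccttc
TNFSF9, chr19:6530776-6531025, plus strand: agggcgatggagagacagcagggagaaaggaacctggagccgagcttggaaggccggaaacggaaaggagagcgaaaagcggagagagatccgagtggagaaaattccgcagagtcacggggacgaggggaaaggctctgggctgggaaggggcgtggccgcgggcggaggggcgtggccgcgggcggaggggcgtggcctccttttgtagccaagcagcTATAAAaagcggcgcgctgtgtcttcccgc
FAS, chr10:88991264-88991293, plus strand: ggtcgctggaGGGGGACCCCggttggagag
The upstream window of TNFRSF1A was AT-richer than that of TNFRSF1B, with 56.1% and 72.4% G and C in the stretches shown, and neither held a kappaB or TATAAA match. In TNFRSF14 the kappaB stretch began 86 bases before the start, and in FAS 157 bases before an internal start, while the windows of the other FAS starts held none. The TATAAA of TNFSF9 lay 30 bases before its start. These matches describe the letters only.

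What LPS did to the family was asked first in scramble adipocytes. Of the 40 members tested 3 passed, which is 7.5% beside 13.4% of all genes. All 3 were lower (beside 8.11%), 1 of them past 2-fold (beside 2.49%), while 5.28% of all genes rose. In edgeR 0 members rose at an adjusted p of 0.05 and 0 at an unadjusted p of 0.05, and DESeq2 called 0 higher as well. The median log2 difference of the members was 0.08 as fitted and 0.02 with bounds, beside 0 for all genes. In KD adipocytes LPS changed 7 members, or 17.5% beside 11.8%, with 4 higher (beside 5.21%), 3 lower (beside 6.59%) and 3 past 2-fold (beside 2.21%), at a median of 0.04 as fitted and 0 with bounds. These comparisons share libraries with those of KD against scramble and are not independent of them.

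TNFRSF12A (Fn14, chr16:3018445-3022383), the small receptor of TWEAK, fell with LPS in both cell groups, and most of the 3 members that fell in scramble. It measured 239, 249 and 214 CPM in scramble and 83.9, 90.2 and 83.9 in scramble with LPS, against 212, 211 and 224 in KD and 121, 132 and 101 in KD with LPS. The LPS libraries lay below those without LPS in both cell groups. LPS lowered it 2.72-fold in scramble (log2 difference -1.45 ± 0.09, adjusted p = 4.04e-09) and 1.83-fold in KD (-0.87 ± 0.09, adjusted p = 2.26e-06). Without LPS scramble and KD overlapped (-0.12, adjusted p = 0.37), and with LPS KD was 1.37-fold higher (adjusted p = 0.00078). The difference between these differences was 0.57 ± 0.13 (adjusted p = 0.031). That call was lost (adjusted p 0.067 to 0.109) when any 1 of 8 libraries was left out, namely replicates 1 and 2 of scramble, 1 and 3 of scramble with LPS, 1 and 2 of KD or 1 and 2 of KD with LPS.

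TNFRSF21 was lowered by LPS in scramble (-0.71 ± 0.08, adjusted p = 6.87e-06) and in KD (-0.42 ± 0.08, adjusted p = 0.0017). TNFRSF10D was at 26.3, 20.4 and 20.2 CPM in scramble and 13.6, 12.2 and 11.5 in scramble with LPS, 1.79-fold lower (adjusted p = 0.0015). In KD its libraries overlapped, at 13.4, 21.6 and 20.8 CPM without and 13.3, 13.3 and 14.7 with LPS (log2 difference -0.44, adjusted p = 0.10), and the difference between both LPS effects did not pass (0.41, 95% interval -0.08 to 0.89).

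FAS (CD95, chr10:88953813-89029605), the receptor of FAS ligand and a classical route to caspase-8, rose with LPS in KD. It measured 43.8, 43.3 and 42.2 CPM in scramble, 51.4, 40.4 and 51.4 in scramble with LPS and 43.8, 43.0 and 46.8 in KD, against 86.6, 79.2 and 89.8 in KD with LPS. The first 3 groups overlapped and the fourth lay apart from all of them. LPS raised FAS 1.91-fold in KD (log2 difference 0.94 ± 0.09, adjusted p = 1.70e-06), and in scramble the difference was 0.15 (95% interval -0.05 to 0.35, adjusted p = 0.37). The interaction, the KD effect with LPS minus that without, was 0.79 ± 0.13 (adjusted p = 0.0055). FAS and TNFRSF12A were the 2 members of 40, or 5%, that passed the interaction test, beside 1.28% of all genes. In the overall test of the 4 groups 13 of 40 members, or 32.5%, passed, beside 40.8% of all genes. FASLG had 0 to 10 counts.

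TNFSF9 (chr19:6531026-6535924, plus strand), the ligand of the co-stimulatory receptor TNFRSF9, was likewise highest in KD with LPS, at a low level. It was at 1.29, 1.56 and 0.967 CPM in scramble, 0.793, 1.95 and 1.71 in scramble with LPS and 0.807, 1.34 and 1.60 in KD, against 4.41, 3.74 and 5.59 in KD with LPS. These values rest on 28 to 82 counts per library in the first 3 groups and 156 to 174 in KD with LPS. LPS raised it 3.64-fold in KD (adjusted p = 0.0029), and KD with LPS exceeded scramble with LPS 3.09-fold (adjusted p = 0.0034). The interaction of 1.65 ± 0.54 did not pass (adjusted p = 0.18), so a different response of TNFSF9 in KD and scramble was not shown. The receptor TNFRSF9 had 0 to 72 counts and passed no comparison.

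TNFRSF11B was also higher with LPS in KD (1.74-fold, adjusted p = 0.020), and its interaction did not pass (1.05 ± 0.32, adjusted p = 0.14). The LPS call was lost in DESeq2 (adjusted p = 0.052) and without KD replicate 1 (0.114), KD replicate 2 (0.068) or KD with LPS replicate 3 (0.115).

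**Figure D4:**
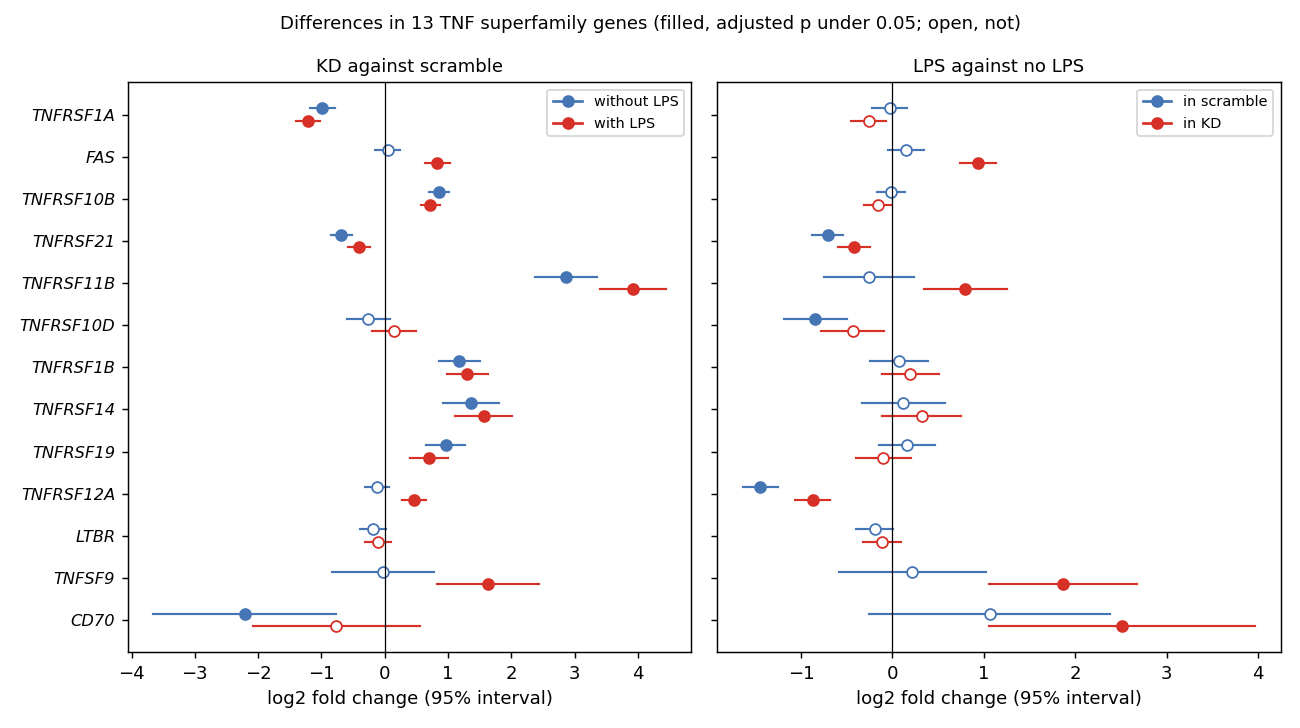
Log2 differences (points) with 95% intervals (lines) of 13 members, for KD against scramble without and with LPS (left) and LPS against no LPS in scramble and in KD (right), filled where the edgeR adjusted p was under 0.05. TNFRSF11B lies farthest right at left, 2.87 and 3.92, and FAS and TNFRSF12A differ between their LPS effects at right.

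CD70 (chr19:6583183-6604103, minus strand), the ligand of CD27, had 37, 36 and 20 counts in scramble, 55, 27 and 64 in scramble with LPS, 1, 13 and 4 in KD and 35, 30 and 17 in KD with LPS. The KD libraries without LPS were the lowest. It was 4.64-fold lower in KD without LPS (adjusted p = 0.022) and 5.70-fold higher with LPS in KD (adjusted p = 0.022). The first call was lost without scramble replicate 1 or 2 or KD replicate 1 or 3 (adjusted p 0.062 to 0.073), and the second without KD replicate 1 or 3 or KD with LPS replicate 1 (0.075 to 0.076). Leaving out 1 library moved the log2 differences between -3.16 and -1.79 and between 2.09 and 3.45, and without KD replicate 2, the KD library with 13 counts, the folds were 8.91 and 10.9. CD27 had 0 to 5 counts.

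TNFSF14 (LIGHT, chr19:6661253-6670588, minus strand), a ligand of TNFRSF14 and LTBR, had 3, 14 and 8 counts in scramble, 1, 14 and 2 in scramble with LPS, 23, 22 and 8 in KD and 0 in each library of KD with LPS. It was lower in KD with LPS than in scramble with LPS (adjusted p = 0.030), where replicates 1 and 3 lay under the floor of 3 counts themselves, so no fold is given. Against that floor per library it was at least 4.98-fold lower than in KD (adjusted p = 0.022), and 3.57-fold without KD replicate 1. Leaving out any library of KD with LPS, or replicate 2 of scramble with LPS for the first and KD replicate 1 for the second, removed the call (adjusted p 0.061 to 0.177).

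The TNFSF12-TNFSF13 readthrough (chr17:7549099-7561601) had 28, 6 and 37 counts in KD with LPS, 0 in scramble with LPS, and otherwise 13 in 1 scramble and 10 in 1 KD library. It was at least 9.03-fold higher in KD with LPS than in scramble with LPS (adjusted p = 0.029; 0.091 in DESeq2), and 5.62-fold without replicate 3 of KD with LPS. Without any 1 library of scramble with LPS, or replicate 1 or 3 of KD with LPS, the call was lost (0.054 to 0.083). It overlaps TNFSF12 and TNFSF13, which lie 401 bases apart, so its estimated counts depend on how shared reads were divided and are uncertain.

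The other ligands and receptors of immune cells were low or not detected, and of those named next TNFSF13B, TNFSF4, TNFSF10 and CD40 had counts in every library. Of the 43 members, 24 had 0 counts in at least 1 library and 27 had under 60 counts in every library. LTA (0 to 2 counts), LTB (0 to 1) and TNFSF8 (0 to 5) were under the minimum for testing. Among ligands, CD40LG had 0 to 4 counts, TNFSF15 0 to 8, TNFSF18 0 to 25, TNFSF13 0 to 23, TNFSF13B (BAFF) 15 to 55, TNFSF4 (OX40 ligand) 16 to 57 and TNFSF10 (TRAIL) 10 to 76. TRAIL differed by 1.84 between KD and scramble with LPS (log2, adjusted p = 0.056) and did not pass. Among receptors, CD40 had 2 to 44 counts, TNFRSF4 0 to 15, TNFRSF8 0 to 7, TNFRSF13B 0 to 9, TNFRSF13C 0 to 20, TNFRSF17 0 to 11 and TNFRSF18 0 to 17. A count of 0 allows up to 0.056 to 0.105 CPM, depending on the library, and this floor covers counting error only.

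Genes of TNF receptor signalling, together with 6 relatives of the superfamily outside the rule and 2 shedding proteases, were read from 6 lists. These held 55 genes, 54 of them tested. Between KD and scramble 11 were higher and 5 lower without LPS, which is 29.6% beside 25.5% of all genes tested, and 16 higher and 5 lower with LPS, or 38.9% beside 26.9%. With LPS 19 were higher and 3 lower in scramble, or 40.7% beside 13.4%, and 19 higher and 5 lower in KD, or 44.4% beside 11.8%. Of the 11 genes of NF-kB and IKK, 7 rose with LPS in scramble (63.6%) and 8 in KD (72.7%), REL by 1.97 and 2.16, NFKB2 by 2.08 and 2.00 and NFKB1 by 1.28 and 1.67 on the log2 scale. The list's median was 0.91 and 0.82, beside 0 and 0.005 for all genes. NFKB2 was also higher in KD than in scramble by 0.49 without LPS and 0.41 with LPS, among 4 and 5 genes of the list that passed (36.4% and 45.5%), all higher.

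Of the adaptors and kinases, 3 of 18 were higher and 4 lower in KD without LPS, 4 and 3 with LPS, 4 and 2 with LPS in scramble and 3 and 3 with LPS in KD. These are 38.9%, 38.9%, 33.3% and 33.3% of the list, beside the 25.5%, 26.9%, 13.4% and 11.8% of all genes. TRAF1, an NF-kB target that buffers TRAF signalling, was higher in all 4 comparisons, by 1.31 and 1.91 for KD and by 1.56 and 2.16 for LPS. MAP3K5 (ASK1) was higher by 1.10, 1.23, 1.55 and 1.69 in the same order, and MAP3K14 (NIK) by 0.90 in KD with LPS. Of the caspase-8 arm and its inhibitors, 2 of 10 were higher and 1 lower in KD without LPS, 3 and 2 with LPS, 4 higher with LPS in scramble, and 4 higher and 1 lower in KD (30%, 50%, 40% and 50% of the list). BIRC3 (cIAP2), an inhibitor of apoptosis, was at 2.70 ± 1.26 CPM in scramble, 9.96 ± 1.55 in scramble with LPS, 19.6 ± 2.09 in KD and 81.3 ± 5.00 in KD with LPS, higher in KD by 2.85 and 3.03 and with LPS by 1.87 and 2.05. CFLAR (c-FLIP), which blocks caspase-8, rose with LPS by 1.21 in scramble and 1.24 in KD.

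Of the linear ubiquitin and deubiquitinase genes, 1 of 8 was higher in KD without LPS, 2 with LPS, and 3 rose with LPS in scramble and in KD, which is 12.5%, 25%, 37.5% and 37.5% of the list, the first 2 below the share of all genes. TNFAIP3 (A20), a brake on NF-kB, rose with LPS by 1.86 in scramble and 2.23 in KD, its partner TNIP1 by 1.69 and 1.59, and CYLD by 0.57 and 0.82. TNIP1 was also higher in KD, by 0.78 without LPS and 0.68 with LPS. ADAM17, the sheddase of TNF and its receptors, rose with LPS by 0.30 and 0.43, and was 0.22 higher in KD with LPS, the 1 of 2 shedding proteases to pass. Of 5 tested relatives outside the rule, EDA was higher in KD without LPS (2.88, on 3 to 67 counts per library) and RELT was lower with LPS, with log2 differences of -1.46 in scramble and -0.86 in KD, and 0.60 higher in KD than in scramble with LPS.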

How the data were processed

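Poly(A) RNA was sequenced from 12 libraries of ASC52telo hTERT adipocytes, 3 per group, made with a stranded mRNA kit. The submitters' processing notes name bcl2fastq (2.19), kallisto (0.44.0), DESeq2 (1.32.0) and GRCh38. The deposited values are estimated counts per gene from kallisto, which divides reads shared by transcripts by estimation, and they were rounded here to whole numbers. A row without a gene name held 0.235 to 0.306% of each library's counts and was left out. Genes with at least 10 counts over the 12 libraries (17173) were fitted with edgeR (4.0.16, R 4.3.3), with TMM scaling, 4 groups and no covariate, and p-values of its quasi-likelihood test were adjusted by Benjamini-Hochberg over all genes tested. The 4 comparisons, their interaction and an overall test of the 4 groups were read at an adjusted p of 0.05. DESeq2 (1.42.0), other scalings and filters, the own 6 libraries, a replicate block and leaving out each library were the alternatives. The script for the fits was tested on simulated data. In that test the limit set for recovery of the interaction was lowered after a first run fell below it. Values are CPM after TMM scaling, mean ± SD or log2 difference ± SE.

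Libraries of a group correlated at 0.990 to 0.996 (log2(CPM + 0.5)) and no pair differed by as little as sampling noise. Positions and transcript lengths were taken from GENCODE 44 (GRCh38), and upstream sequence from RefSeq.

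Members and lists were chosen with earlier results of these data known. Members were described library by library where they passed a comparison with a mean of at least 20 counts in a group, other members by their range of counts, and up to 3 genes were named per pathway list, by the size of their log2 difference among those that passed. The value of TNFSF14, under that mean, was added since it passed. A gene that this rule would name is not reported here.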

Additional observations from a re-analysis of the deposited data

Results flagged for a closer look

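The effect of KD differed between libraries with and without LPS for 2 members, by the interaction test of edgeR. For FAS the KD effect with LPS minus that without was 0.79 ± 0.13 on the log2 scale (adjusted p = 0.0055), with a KD effect of 0.83 with LPS and 0.05 without. All 3 libraries of KD with LPS lay above all 9 other libraries. It passed in all 12 fits that left out 1 library, between 0.68 and 0.84, and in the 7 other settings, between 0.74 and 0.79. For TNFRSF12A the same difference was 0.57 ± 0.13 (adjusted p = 0.031), with a KD effect of 0.46 with LPS and -0.12 without, and it passed in 4 of the 12 fits that left out 1 library.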

How the results depend on the processing

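Of 32 member results that passed, 25 kept their direction and their side of the threshold in every alternative, 7 lost the call in at least 1 and 0 reversed. The number of members passing was 7 to 9 for KD without LPS, 10 to 13 for KD with LPS, 3 to 4 for LPS in scramble and 5 to 8 for LPS in KD over all settings. For the interaction it was 2, and 1 with scaling by library size only and 1 with upper-quartile scaling, where TNFRSF12A missed the threshold (adjusted p 0.054 and 0.051), and 3 without the count filter. It ranged from 1 to 2 when 1 library was left out. Fitted on their own 6 libraries, CD70 lost both calls (adjusted p 0.093 and 0.15) and TNFSF14 the call of KD with LPS (0.118). Over all genes the interaction called 219 genes in edgeR, 431 without the count filter and 475 in DESeq2. Scaling by library size only moved the median of all genes from 0.01 to 0.12 in KD without LPS, and none of the 32 results changed direction. The cause of these changes was not tested.

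Whether replicate numbers pair the samples could not be decided from so few pairs. The correlation of deviations from group means was above 0.1 in 5 of 18 same-numbered pairs and in 5 of 36 others. It ran from -0.18 to 0.27 (median 0.0006) in the same-numbered pairs and from -0.21 to 0.16 (median 0.011) in the others. With a replicate block 8, 11, 3 and 7 members passed the 4 comparisons, 3 the interaction and 12 the overall test, and of the members' calls only that of TNFSF14 in KD with LPS was lost (adjusted p = 0.069). At these depths members with a few counts, TNF among them, allow no statement on differences.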

Other observations

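Genes whose levels followed those of the 3 members with the smallest p in the overall test were read across the whole table, over 11810 genes whose mean count was 50 or more and the 12 libraries, which fall in 4 groups. For TNFRSF11B the nearest were MAOB (Pearson r = 0.989, Spearman rho = 0.916), PCSK2 (0.989 and 0.937) and ASNS (0.989 and 0.930). For TNFRSF12A they were DIRAS1 (0.974 and 0.951), FAM180A (0.972 and 0.937) and RELT (0.971 and 0.797), the last itself an orphan receptor of the TNF receptor superfamily that the member rule leaves out. For TNFRSF1A they were RERE (0.994 and 0.965), ANXA6 (0.993 and 1) and TLN2 (0.993 and 0.972). These are descriptions over libraries that share their group, with no test.

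Median differences of genes within 1 Mb were read beside members. The last 3 given here are members with large KD differences, so smaller medians around them follow from that choice. The first 3 had small KD differences without LPS, so larger medians around them follow from the choice as well. Around FAS (log2 difference in KD without LPS 0.05), TNFRSF12A (-0.12) and TNFSF9 (-0.02) the medians were 0.15, 0.15 and 0.23, larger in size than the member's own. The 3 members with large differences were TNFRSF1A, TNFRSF11B and TNFRSF1B. Around TNFRSF1A, whose log2 difference in KD without LPS was -0.98, the median of 48 neighbours was 0.04. Around TNFRSF11B (2.87) that of 8 neighbours was 0.13, and around TNFRSF1B (1.18) that of 19 was 0.43.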
